A study of Mus musculus with 11 samples.

Results

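The MHC class II presentation genes described here are 9 genes of mouse small-intestinal organoids, picked by name from the 37310 genes in the count tables: the regulator Ciita, the chains H2-Aa, H2-Ab1 and H2-Eb1, the chaperones Cd74, H2-DMa and H2-DMb1, and the proteases Ctss and Lgmn. All 9 had an entry, 8 had at least 1 read in the unstranded counts, and 6 passed the filter on low counts. H2-Ab1 was 7.83-fold lower at passages 11 to 13 than at passages 2 to 4, and the chaperone subunit H2-DMa and the lysosomal proteases Ctss and Lgmn were 2.65-fold, 2.00-fold and 1.67-fold lower. The regulators that act on these genes, as far as they were tested, did not pass the threshold. Few of all genes tested did (2.34% lower and 0.706% higher late).

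MHC class II molecules are heterodimers of an alpha and a beta chain that carry peptides from the endosomal system to the cell surface, where CD4+ T cells read them. The invariant chain, encoded by Cd74, fills the groove of the new heterodimer and guides it to late endosomes, where Ctss, a cysteine protease, and Lgmn, an asparaginyl endopeptidase, cut proteins. The H2-DM heterodimer of H2-DMa and H2-DMb1 then helps to exchange the remaining fragment for peptide. Ciita is a co-activator without DNA binding of its own that is recruited to the X and Y boxes of class II promoters by the RFX, CREB and NF-Y factors, and interferon gamma induces it. Professional antigen-presenting cells express the set at high levels, and gut epithelial cells, Lgr5+ stem cells among them, can express it too. Ctss and Lgmn also serve general lysosomal protein breakdown.

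The organoids are self-renewing epithelial cultures that were grown from crypts of mice with the Lgr5-EGFP-IRES-creERT2 allele, which every group carried, embedded in Matrigel with IntestiCult medium, and were split every 7 days. Bulk RNA sequencing gave 1 library for each animal and passage, 11 in all. Early cultures were those at passages 2, 3 and 4 of mouse_283 and passages 2 and 4 of mouse_285 (n = 5), and late cultures those at passages 11, 12 and 13 of both animals (n = 6). Ages of 4 and 24 months are named for the donors, but no label ties an age to either animal, and although the protocol mentions upper and lower small intestine and colon, the labels give every library as small intestinal epithelium. No label names an added cytokine or immune cells in the cultures.

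Levels are given in CPM, read counts scaled to a common library size with TMM factors, which allow for differences in composition between libraries. The libraries held 15114132 to 28949911 reads in genes, so that 3 reads corresponded to 0.104 to 0.198 CPM, a limit that covers counting error only. The libraries of 1 animal at successive passages come from a continuing culture, so p-values measure the spread between libraries of 2 animals, and stage cannot be told apart from anything else that differed between the early and late harvests. Passages 3 and 4 of mouse_283 stood apart: expression there rose with the GC content of genes, by 1.02 and 0.81 on the log2 scale per 10 percentage points of GC relative to the mean of the libraries, against -0.43 to 0.20 in the others. Summed CPM of 12 epithelial markers ran from 8757 to 19278. Of 25 immune markers, 3 had no read in any library, and Ptprc, the gene of the pan-leukocyte surface protein CD45, had 1 read in all 11 libraries together. Others were read: Itgam, Cd14 and Cd68, the highest of the 25, had 7.59, 7.27 and 3.47 CPM on average over the 11 libraries. The summed level of the 25 was 17.8 to 31.7 CPM early and 12.9 to 24.7 CPM late. Of the 6 that could be tested none passed the threshold, beside 2.34% of all genes lower and 0.706% higher late.

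The promoters of the class II chains carry a shared arrangement of short elements, and the stretches below show what it looks like in the members with an entry among RefSeq promoter windows, and how Ctss differs. Windows of 300 bases, 250 before and 50 after the start, were found for 6 of the 8 members looked up (build GRCm38.p6, later than that of the counts). Cd74 was not looked up, and Ciita and H2-Ab1 had no window. Capitals mark the X box core AGNAACNGATG and the Y box core ATTGG in H2-Eb1, the X box core in H2-DMb1, the element TGACGTCA that CREB factors bind and the Y box core in H2-Aa, and the core GAAANNGAAA of interferon-stimulated response elements in Ctss.
H2-Eb1 (chr17:34305765-34305822, plus strand, 102 to 45 bases before the start): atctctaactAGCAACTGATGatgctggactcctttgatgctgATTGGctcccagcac
H2-DMb1 (chr17:34153087-34153116, plus strand, 104 to 75 bases before the start): ggtttacctAGTAACTGATGatgctaggct
H2-Aa (chr17:34287857-34287907, minus strand, 84 to 34 bases before the start): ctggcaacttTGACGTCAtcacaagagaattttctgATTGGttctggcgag
Ctss (chr3:95526755-95526784, plus strand, 31 to 2 bases before the start): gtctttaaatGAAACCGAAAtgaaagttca

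These letters were chosen with the members' windows in view, so a match is a description and not a site of binding. Searched on both strands over all 32851 windows of this length, the X box core was in 98 windows (0.298%), the Y box core in 37.4%, TGACGTCA in 1.79% and GAAANNGAAA in 3.44%. Among the members, the X box core was in the windows of H2-Eb1 and H2-DMb1, and the Y box core in a window of H2-Eb1, H2-DMb1, H2-Aa, H2-DMa and Lgmn. In H2-Eb1 and H2-DMb1 the X box core began 92 and 95 bases before the start and the Y box core 59 and 61 bases before it. The Y box core began 48 bases before the start in H2-Aa, 88 in Lgmn and 198 in H2-DMa. Of the members with a window, GAAANNGAAA was in that of Ctss alone, 21 bases before the start. The other window of Lgmn held the E-box CACGTG, the core of the element that lysosomal gene regulators of the TFEB family bind, as did 7.15% of all windows.

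Ciita, which switches the class II chains on, was close to the detection limit. It had 3 reads in mouse_283 at passage 2 and 1 read in each of the other 4 early libraries, and late it had 1 read at passages 11 and 12 of mouse_283 and none in the other 4 libraries. No library exceeded 3 reads. Pooled over libraries, 7 early and 2 late reads gave 0.0701 CPM (exact Poisson 95% interval 0.0282 to 0.144) and 0.0157 CPM (0.0019 to 0.0567), a ratio of 4.46 with an exact counting interval of 0.85 to 44.0 that includes 1. Without passage 2 of mouse_283 the ratio was 3.05 (0.44 to 33.7). A difference in Ciita was therefore not detectable at this depth. Interferon gamma itself (Ifng) had 1 read in all 11 libraries.

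H2-Ab1, the beta chain of the I-A molecule, showed the largest difference among the tested members. Its unstranded counts corresponded to 0.61, 2.70 and 2.17 CPM at passages 2, 3 and 4 of mouse_283 and to 3.40 and 4.39 CPM at passages 2 and 4 of mouse_285. Late, mouse_283 had 0.094, 0.163 and 0.052 CPM at passages 11, 12 and 13, from 2, 5 and 1 reads. Mouse_285 had 1.38, 0.437 and 0.807 CPM at the same passages, from 33, 7 and 13 reads. Within each animal every late library lay below every early one, but across animals the groups overlapped, because passage 2 of mouse_283 was below passages 11 and 13 of mouse_285. The means were 2.65 ± 1.41 CPM early (SD, n = 5) and 0.489 ± 0.521 CPM late (SD, n = 6), and the log2 fold change of late against early with the animal in the model was -2.97 (SE 0.52, adjusted p = 0.0109, edgeR quasi-likelihood test with Benjamini-Hochberg adjustment over 14172 genes).

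H2-Aa, the alpha chain that pairs with H2-Ab1, had no read in any library in the unstranded counts, yet its strand columns held reads. Summed over both strands these were 11, 7 and 6 reads at passages 2, 3 and 4 of mouse_283 and 18 and 7 reads at passages 2 and 4 of mouse_285, against 2 reads at passage 12 of mouse_285 and none in the other 5 late libraries. In each of the 11 libraries the H2-Aa reads equalled, read for read, the reads that H2-Ab1 gained when its strand columns were summed in place of the unstranded column. No other member gained a read. An annotation of the counts' build was not used here, so whether both genes overlap in it was not looked up. In these unstranded libraries, where the first strand column held 50.0% to 50.2% of the stranded reads, these reads cannot be told apart between the alpha chain and the beta chain. The 49 early and 2 late reads gave a ratio of 31.2 of early to late CPM, with an exact counting interval of 8.20 to 265. This interval covers counting error only and leaves out the spread between libraries. With the strand columns summed, H2-Ab1 itself gave -3.18 (SE 0.46, adjusted p = 0.00489 by edgeR). H2-Aa, which is tested only on these sums, was then called lower too (-4.65, SE 0.82, adjusted p = 0.0112 by edgeR over 15160 genes). That fitted value rests on 2 late reads and on reads that H2-Ab1 also holds. On these sums H2-Aa reached the filter's level only in early libraries, which selects for genes that are lower late. Its call therefore lends no support to a difference.

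**Figure D1:**
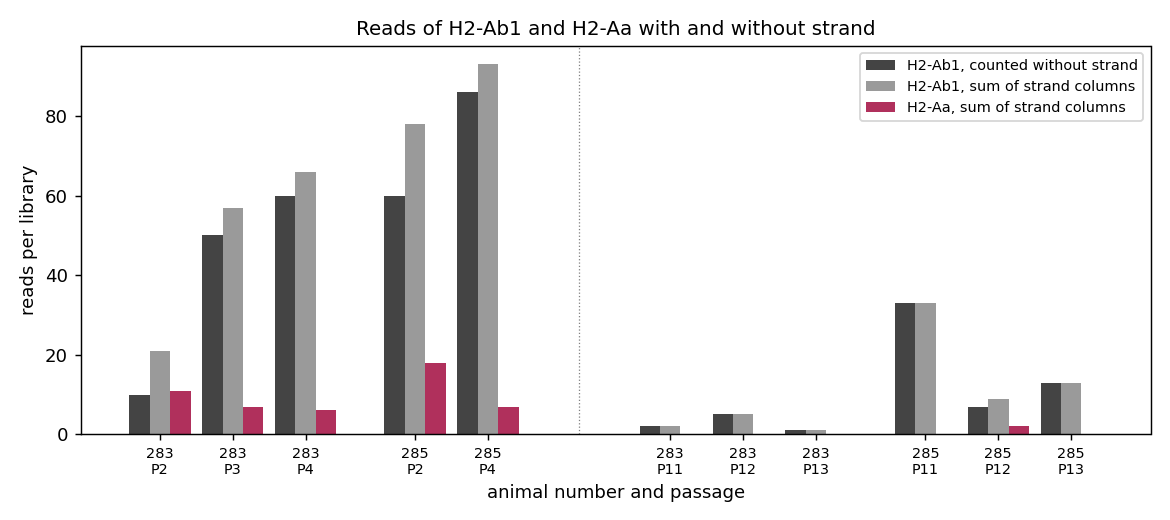
Reads per library (y axis) of H2-Ab1 in the unstranded column, of H2-Ab1 in the summed strand columns and of H2-Aa in the summed strand columns, by animal number and passage (x axis); the dotted line parts early from late. The step between both H2-Ab1 bars equals the H2-Aa bar in all 11 libraries, and the H2-Aa bar is 6 to 18 reads in the early libraries and 0 to 2 in the late ones.

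H2-Eb1, the beta chain of the I-E molecule, was lower in every late library than in any early one but did not pass the threshold. It stood at 0.305, 1.19 and 0.397 CPM at passages 2, 3 and 4 of mouse_283 and at 0.566 and 0.459 CPM at passages 2 and 4 of mouse_285, from 5 to 22 reads. The late libraries had 0.124 to 0.293 CPM with a median of 0.197, from 2 to 8 reads. Mouse_283 at passage 3 was the highest, and the groups did not overlap. The margin was within counting error: the lowest early library had 0.305 CPM from 5 reads and the highest late one 0.293 CPM from 7 reads. The log2 fold change was -1.39 (SE 0.45, adjusted p = 0.110 by edgeR). Without mouse_283 passage 2 it was -1.55 and passed, with an adjusted p of 0.0238, while the count over all genes rose from 432 to 4864 in that fit.

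Cd74, the invariant chain, failed the filter on low counts. It had 0.305, 1.19 and 0.325 CPM at passages 2, 3 and 4 of mouse_283, 0.283 and 0.153 CPM at passages 2 and 4 of mouse_285, and 0 to 0.186 CPM with a median of 0.0887 late. Passage 3 of mouse_283, with 22 of the 44 early reads, was the highest, and the groups overlapped between passage 4 and passage 13 of mouse_285. Pooled, the 44 early and 12 late reads gave a ratio of 4.67 of early to late CPM with an exact counting interval of 2.43 to 9.72. Such an interval covers counting error only and leaves out the spread between libraries, so it does not test a difference between stages. Without passage 3 of mouse_283 the ratio was 2.87, with an interval of 1.36 to 6.36. A fit with no filter on low counts, over 23493 genes, gave -2.03 (SE 0.76, adjusted p = 0.0751 by edgeR).

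Both subunits of the peptide exchange factor H2-DM were read, at unlike levels. H2-DMa stood at 5.55, 15.9 and 9.53 CPM at passages 2, 3 and 4 of mouse_283 and at 8.16 and 9.09 CPM at passages 2 and 4 of mouse_285. Late it stood at 4.92, 2.12 and 2.43 CPM in mouse_283 and at 4.32, 4.68 and 3.78 CPM in mouse_285. Every late library was below every early one, and the means were 9.65 ± 3.83 (SD, n = 5) and 3.71 ± 1.18 CPM (SD, n = 6), a log2 fold change of -1.41 (SE 0.32, adjusted p = 0.0327 by edgeR). H2-DMb1 ran from 0 to 0.623 CPM early and from 0.140 to 0.466 CPM late, on at most 15 reads a library, and the groups overlapped. Its log2 fold change of -0.49 had a 95% interval of -1.65 to 0.66 (adjusted p = 0.591 by edgeR), which includes both no change and a fall as large as that of H2-DMa. Without passages 3 and 4 of mouse_283 it was 0.02, of the opposite sign.

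Ctss, the protease of the last steps of invariant chain breakdown in antigen-presenting cells, was lower late in both animals. It stood at 10.4, 5.23 and 7.47 CPM at passages 2, 3 and 4 of mouse_283 and at 10.1 and 7.76 CPM at passages 2 and 4 of mouse_285. Late it stood at 4.63, 3.46 and 3.52 CPM in mouse_283 and at 4.69, 4.56 and 4.09 CPM in mouse_285. The highest late library, passage 11 of mouse_285, was below the lowest early one, passage 3 of mouse_283. That separation depended on the scaling: on raw library totals passage 3 of mouse_283 had 3.79 CPM, below 4 late libraries at 4.37 to 5.11 CPM. The means were 8.20 ± 2.12 (SD, n = 5) and 4.16 ± 0.56 CPM (SD, n = 6), with a log2 fold change of -0.997 (SE 0.22, adjusted p = 0.0297 by edgeR).

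Lgmn was the most abundant member. It stood at 74.5, 108 and 83.7 CPM at passages 2, 3 and 4 of mouse_283 and at 60.2 and 71.1 CPM at passages 2 and 4 of mouse_285, on 1063 to 2318 reads a library. Late it stood at 49.5, 48.3 and 59.0 CPM in mouse_283 and at 41.2, 42.6 and 36.9 CPM in mouse_285. No late library reached the lowest early one, passage 2 of mouse_285, although passage 13 of mouse_283 came close to it. The means were 79.4 ± 17.9 (SD, n = 5) and 46.3 ± 7.78 CPM (SD, n = 6), with a log2 fold change of -0.74 (SE 0.15, adjusted p = 0.0199 by edgeR).

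**Figure D2:**
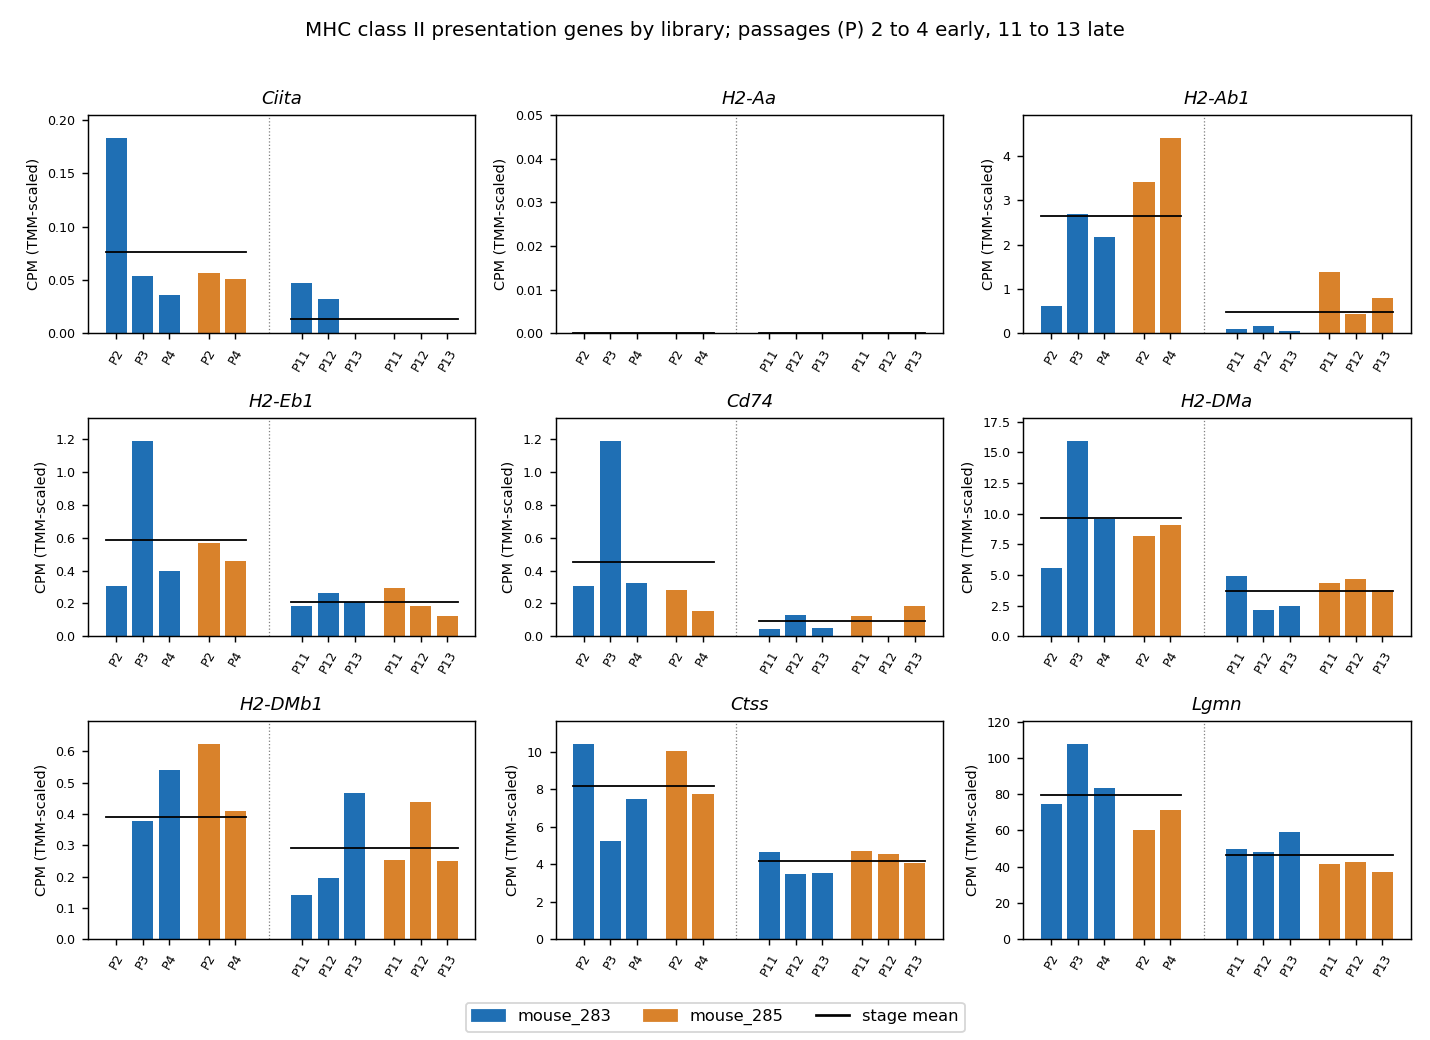
CPM after TMM scaling (y axis, linear from 0, a scale of its own in each panel) of the 9 members in the 11 libraries (x axis, P for passage), coloured by animal, with a black line at the mean of the 5 early and of the 6 late libraries. Every late bar is below every early bar for H2-Eb1 (by a margin within counting error), H2-DMa, Ctss (not on raw library totals) and Lgmn, H2-Ab1 is lower late within each animal, and H2-Aa has no read in this column. The share of all genes separated in this way across both animals was not counted.

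Per kilobase of transcript, which allows levels to be compared between genes, the early order was Lgmn at 39.9 ± 8.98 CPM per kb, Ctss at 6.05 ± 1.57, H2-DMa at 4.81 ± 1.91, H2-Ab1 at 2.19 ± 1.17, H2-Eb1 at 0.349 ± 0.210, Cd74 at 0.319 ± 0.296, H2-DMb1 at 0.278 ± 0.171 and Ciita at 0.0127 ± 0.0100 (SD, n = 5). Ctss and H2-DMa, and the 3 genes H2-Eb1, Cd74 and H2-DMb1, differed from their neighbours in this order by less than their SD. Late, Lgmn led with 23.2 ± 3.91 CPM per kb, followed by Ctss at 3.07 ± 0.41, H2-DMa at 1.85 ± 0.59 and H2-Ab1 at 0.404 ± 0.430 (SD, n = 6). The proteases, which other lysosomal work also needs, thus stood above the dedicated chains at both stages on the per-kilobase scale. Lengths were those of the longest transcript in a later annotation and carry that uncertainty.

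Read against all genes, 4 of the 6 tested members were called lower late, namely H2-Ab1, H2-DMa, Ctss and Lgmn, where 332 of 14172 genes (2.34%) were. None of the 6 was called higher, where 100 genes (0.706%) were. The members' median log2 fold change was -1.19, and that of all genes tested was -0.02. Of the 9 members 3 were not tested, and H2-Ab1, H2-Eb1 and H2-DMb1 passed the filter on few late reads, so these counts describe the genes that were measurable and not the whole pathway. H2-Eb1 and H2-DMb1 reached the filter's level only in early libraries, which selects for genes that are lower late. Their direction therefore lends no support to the median or to the counts given here. Both genes are nevertheless part of that median, and H2-Eb1 is part of the next count, so neither figure is free of this selection. Every late library was below every early library of the same animal for 5 of the 6 tested members, the 4 called and H2-Eb1, and for 771 of all genes tested (5.44%). With RLE size factors these counts were 5 of 6 and 703, and on raw library totals 4 of 6 and 590, where Ctss in mouse_283 overlapped. The share of all genes with every late library below every early one across both animals was not counted. Such a separation, given above for single members, therefore has no background here. In bulk RNA, fewer cells that express a gene and less of its RNA per cell cannot be told apart.

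Taken by animal, the direction in the reported fit was the same for every tested member, among them H2-Eb1 and H2-DMb1, which passed the filter through early libraries. For H2-DMb1 in mouse_283, at -0.30 (SE 0.82), the sign depended on the setting. It was 0.41 without passage 4 of that animal and 0.26 with the GC content and length correction, and also positive without passages 3 and 4. In mouse_283, H2-Ab1 was lower by 16.0-fold (log2 fold change -4.00, SE 0.70, adjusted p = 0.0173 by edgeR), the only member of 6 called there, where 154 genes (1.09%) were called lower. The call was lost without passage 3, 11, 12 or 13 of that animal (-3.62 to -4.53, adjusted p = 0.0515 to 0.106) and without both passages 3 and 4, where the value was -2.41 (adjusted p = 0.106). Without passage 2 of mouse_283, in contrast, 5 members and 3607 genes were called lower there. Within mouse_283, H2-DMa had -1.71 (SE 0.42, adjusted p = 0.0814), Ctss -0.99 (SE 0.31, adjusted p = 0.160) and Lgmn -0.76 (SE 0.21, adjusted p = 0.117) by edgeR. Ctss was called there with the GC content and length correction (-1.28, adjusted p = 0.0220), where 276 genes were called lower. H2-DMa was called there with no filter on low counts (-1.68, adjusted p = 0.00262), where 520 genes were. In mouse_285, with 2 early libraries, H2-Ab1 was at -2.12 (SE 0.62), H2-DMa at -1.02 (SE 0.46), Ctss at -1.002 (SE 0.34) and Lgmn at -0.71 (SE 0.23), and none of the members was called by edgeR, their smallest adjusted p being 0.554. No gene of the whole table was called lower there (0%). In either direction, 762 of 14172 genes had an unadjusted p under 0.05 by edgeR, close to the share that chance alone gives. H2-Ab1 was called in mouse_285 with no filter on low counts (-2.09, adjusted p = 0.0494), where 67 genes were called lower in that animal. Leaving out passages 3 and 4 of mouse_283 keeps only passage 2 as its early library. In that fit H2-Ab1 and Lgmn were at -2.11 and -0.70 in mouse_285, and Ctss was at -1.43 in mouse_283.

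Whether the fall differed between the animals was tested with an interaction term. It was 1.88 for H2-Ab1 (SE 0.94, unadjusted p = 0.0677, adjusted p = 0.990 by edgeR), on the side of a smaller fall in mouse_285. It was 0.30 (SE 0.82) without passages 3 and 4 of mouse_283, and 2.28 (SE 0.76, adjusted p = 0.0558) without passage 2 of that animal. None of the 6 members passed, none had an unadjusted p under 0.05, and DESeq2 called none. Over all genes edgeR called none (0%) and DESeq2 called 16. An unadjusted p under 0.05 by edgeR was found for 302 of 14172 genes, fewer than chance alone gives. That background rested on passage 2 of mouse_283, without which edgeR called 2315 genes. The animals themselves differed most in H2-Ab1, which was higher in mouse_285 by 1.88 on the log2 scale (SE 0.52, adjusted p = 0.359 by edgeR). No member was called between animals, where 11 genes (0.0776%) were. That result depended on the setting: H2-Ab1 was called higher in mouse_285 by DESeq2 at 1.96 (adjusted p = 0.0330), with no filter on low counts at 1.85 (adjusted p = 0.00368), without passages 3 and 4 of mouse_283 at 2.85 (adjusted p = 0.0101) and after correction for GC content at 2.19 (adjusted p = 0.0422).

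The late calls were recomputed with the libraries that stood apart in GC content in view. The members' transcripts held 57.3% GC in H2-Ab1, 55.1% in H2-DMa, 51.8% in Lgmn and 46.0% in Ctss, against a median of 50.5% for the genes tested. In mouse_283 passage 3, the library with the steepest trend, H2-Eb1, Cd74, H2-DMa and Lgmn had their highest level and Ctss its lowest early level. With offsets for GC content and transcript length, the same 4 members were called, at -2.49 (SE 0.39) for H2-Ab1, -0.98 (SE 0.22) for H2-DMa, -1.22 (SE 0.19) for Ctss and -0.50 (SE 0.11) for Lgmn, while over all genes the calls went from 332 lower and 100 higher to 463 lower and 487 higher. Without passages 3 and 4 of mouse_283 the values were -2.19 for H2-Ab1 (adjusted p = 0.00840), -1.17 for Ctss (adjusted p = 0.00489), -0.63 for Lgmn (adjusted p = 0.0133) and -0.94 for H2-DMa, which was no longer called (adjusted p = 0.0595).

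Single libraries decided several calls but no direction. H2-Ab1 kept its call when any 1 of the 11 libraries was left out, with adjusted p-values of 0.00419 to 0.0406, and lost it without the animal in the model (-2.43, adjusted p = 0.0719). Ctss was not called without mouse_285 passage 2 or 4, or without any 1 of the 6 late libraries, at -0.93 to -1.07 with adjusted p-values of 0.0562 to 0.0877. H2-DMa was not called without mouse_283 passage 3, without mouse_285 passage 4 or without any 1 late library, at -1.12 to -1.59 with adjusted p-values of 0.0504 to 0.0977. Lgmn was not called without mouse_285 passage 4 or without any 1 late library other than mouse_283 passage 13, at -0.70 to -0.75 with adjusted p-values of 0.0504 to 0.0799. The late libraries left out one by one, and mouse_285 passage 4, also brought the calls over all genes from 432 down to 176 to 258.

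**Figure D3:**
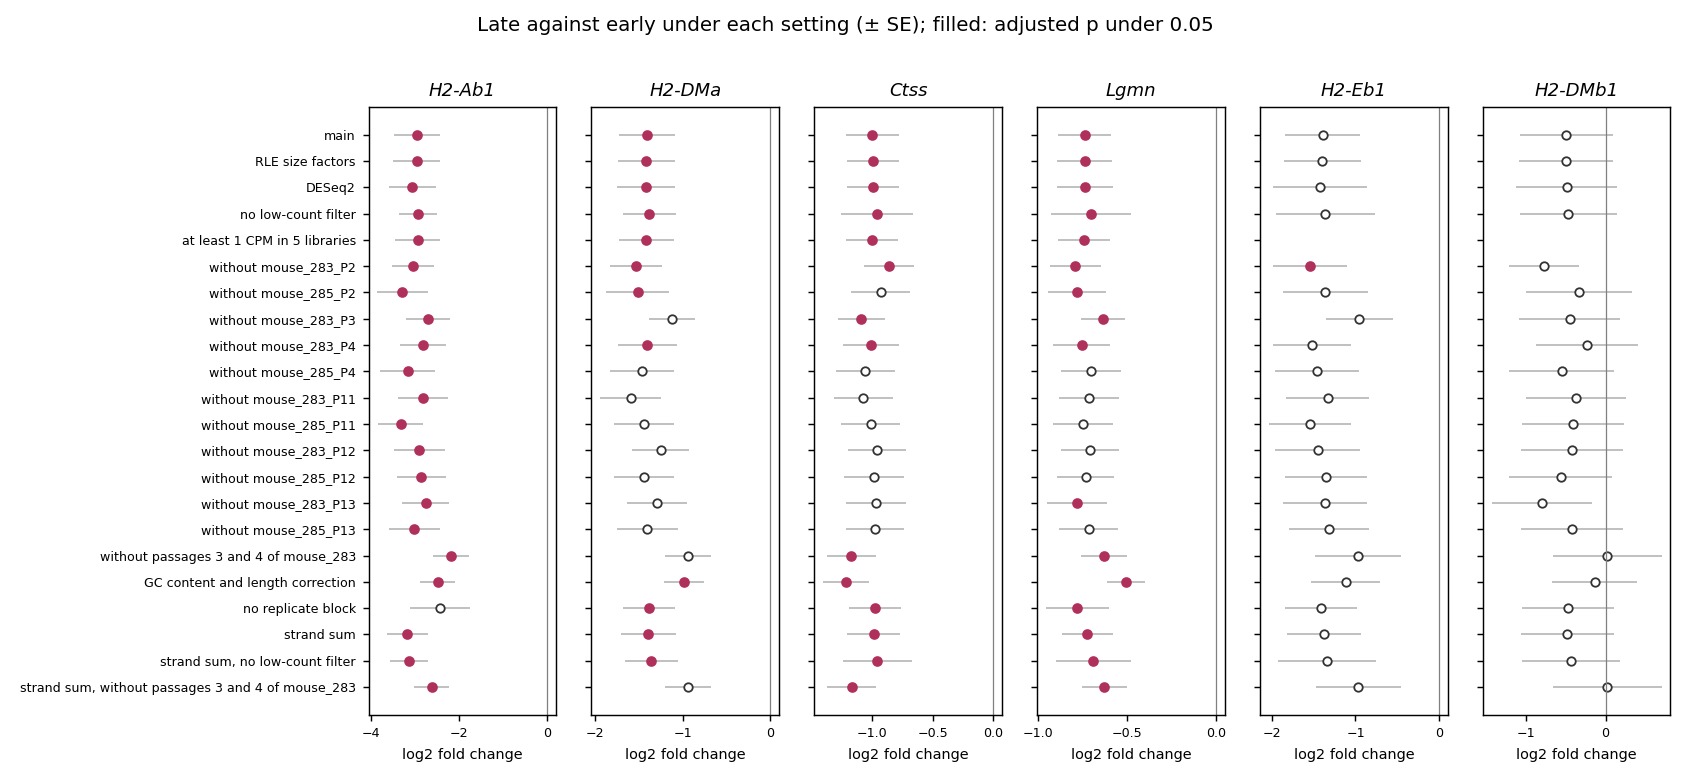
Log2 fold change of late against early (x axis, ± SE) of the 6 tested members under the reported fit and 21 other settings (y axis); filled points had an adjusted p under 0.05. H2-Ab1 is filled in all rows but the one without the animal in the model, Ctss in 13, Lgmn in 15 and H2-DMa in 11 of the 21 other settings, and of the 20 other settings that kept them H2-Eb1 is filled in 1 and H2-DMb1 in none; only the H2-DMb1 points cross 0.

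Among 17 other genes of class II presentation, 11 were tested, with a median log2 fold change of -0.11. None was called lower and 1 was called higher late, beside 2.34% and 0.706% of all genes tested. The gene called higher was Cd80, a T cell costimulatory ligand, at 0.102 ± 0.082 CPM early (SD, n = 5) and 0.652 ± 0.349 CPM late (SD, n = 6), a log2 fold change of 2.58 (SE 0.60, adjusted p = 0.0374 by edgeR) on at most 35 reads a library. Cd80 reached the level of the filter on low counts only in late libraries, which selects for genes that are higher late. Its call therefore lends no support to a rise. It lost the call without passages 3 and 4 of mouse_283 (2.18) and without any single library other than passage 2 of either animal (2.36 to 2.70, adjusted p = 0.0617 to 0.0961 by edgeR). The most abundant of the list were endosomal hydrolases and their partners. Ctsb, a cysteine protease of lysosomes, was at 1404 ± 462 CPM early and 880 ± 100 CPM late (log2 fold change -0.64, SE 0.19, adjusted p = 0.0861). Ctsd, the main aspartic protease of lysosomes, had -0.39 (SE 0.22, adjusted p = 0.280), Ifi30, the thiol reductase that opens disulfides of antigens, -0.52 (SE 0.22, adjusted p = 0.182), and Cst3, a secreted inhibitor of cysteine proteases, -0.50 (SE 0.26, adjusted p = 0.252). H2-Eb2, H2-Oa, H2-DMb2 and the costimulatory ligand Cd86 had no read in any library, and H2-Ob had 1; these 5 were named after their values were seen.

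The factors that assemble on class II promoters and the interferon gamma pathway gave no call in either direction. Of all genes tested 2.34% were called lower and 0.706% higher, so no call in so short a list is not a result about its genes. Of 17 such genes 16 were tested, and their median log2 fold change was 0.18. Ifngr1 and Ifngr2, the chains of the interferon gamma receptor, were at 221 ± 74.6 and 140 ± 12.0 CPM early and at 239 ± 35.4 and 132 ± 10.9 CPM late, with log2 fold changes of 0.12 (SE 0.21, adjusted p = 0.738) and -0.10 (SE 0.13, adjusted p = 0.636). The receptor-bound kinase Jak1 had 0.40 (SE 0.29, adjusted p = 0.381) and the NF-Y subunit Nfyc -0.28 (SE 0.19, adjusted p = 0.355). Outside the naming rule, and picked for their role after the values were seen, the RFX subunits Rfx5, Rfxap and Rfxank had 0.09, 0.24 and -0.29, and the interferon-induced factor Irf1 had -0.08 on the log2 scale. The other NF-Y subunits had positive values, 0.33 for Nfya (adjusted p = 0.319) and 0.70 for Nfyb (adjusted p = 0.108). The highest values of the list were those of Creb1 at 0.79 (adjusted p = 0.187) and Jak2 at 0.72 (adjusted p = 0.237). A p above the threshold does not show that these genes were unchanged.

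**Figure D4:**
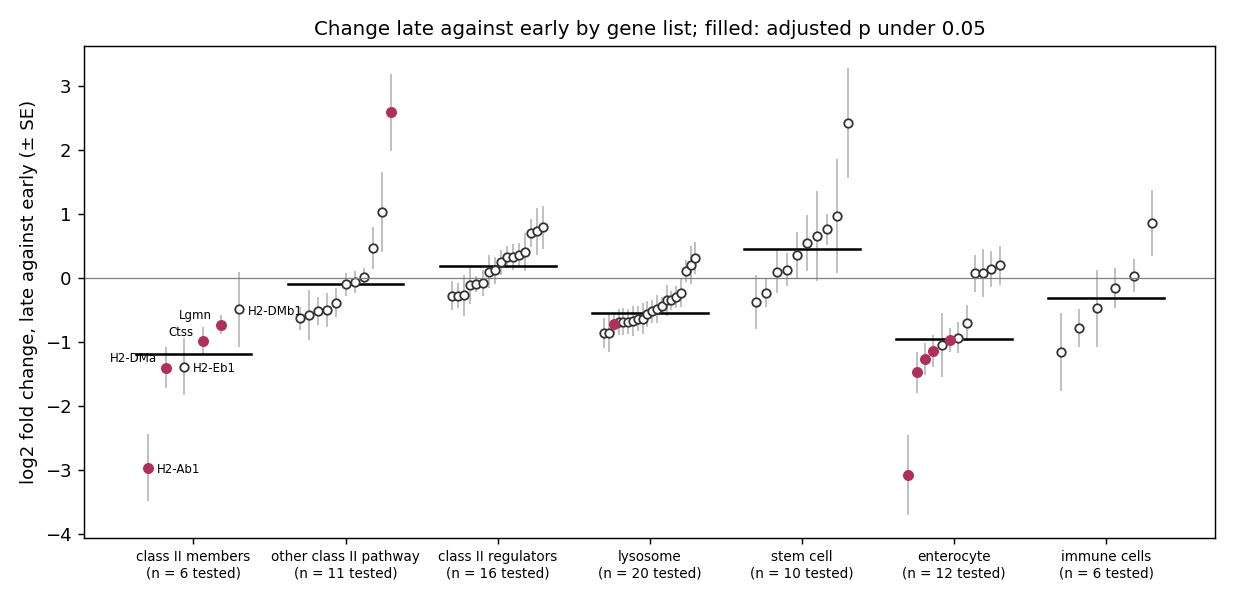
Log2 fold change of late against early (y axis, ± SE) of each tested gene, by list (x axis, with the number tested), with a black line at the list's median and filled points for an adjusted p under 0.05. Of the 6 class II members 4 are filled and below 0, of the 11 other class II pathway genes 1 is filled and above 0, and of the 16 regulators none is filled. The gene above 0, Cd80, passed the filter on low counts through late libraries only. Of all genes tested 2.34% were called lower and 0.706% higher.

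Lysosomal genes outside the class II pathway, enzymes and membrane proteins of the compartment where Ctss and Lgmn work, were mostly below 0 as well, with no test of the lists against each other. Of 20 tested, 17 had a log2 fold change below 0, with a median of -0.55. Of 12 enterocyte markers 5 were called lower late and none higher, beside 2.34% and 0.706% of all genes, with a median of -0.96 and sums of 3310 to 4613 CPM early and 2062 to 3040 CPM late. Of 10 stem cell markers none was called, with a median of 0.45 and sums of 994 to 2791 CPM early and 1325 to 3297 CPM late. The part of these cell types in the members' levels was not tested.

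Genes whose log2 CPM followed a member most closely over the 11 libraries were picked from 9934 candidates of at least 5 CPM and are given as a description, since the libraries share stage, animal and GC trend. For H2-Ab1 these were Ctrb1, a pancreatic-type chymotrypsinogen (r = 0.94), Rec8, a meiotic cohesin subunit (r = 0.92), and Sh3bp2, an adaptor protein (r = 0.91). Ctrb1 went from 110 CPM early to 10.6 CPM late on average. For Ctss they were the membrane-bound matrix metalloproteinase Mmp14, the neuronal scaffold gene Ppp1r9a and Nat8f4 (each r = 0.93), for Lgmn Blcap (r = 0.98), Inpp5k (r = 0.97) and the ER retention receptor Kdelr3 (r = 0.97), and for H2-DMa Zbtb8a (r = 0.98), Dlgap4 (r = 0.98) and Renbp (r = 0.97). Among the members, H2-Ab1 and H2-DMa had r = 0.81 and H2-Eb1 and Lgmn r = 0.82, while the subunits H2-DMa and H2-DMb1 of the H2-DM heterodimer had r = 0.26. H2-DMb1 had 0 to 15 reads a library and H2-Eb1 2 to 22, so counting error limits what their correlations show.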

How the data were processed

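The authors deposited read counts per gene, made per the submitters' processing notes with Trimmomatic and STAR on mm9; versions and the annotation release are not given in the sources used here. Symbols were matched for 32620 of 37310 identifiers. The unstranded column was used, and sums of the strand columns, other scalings of the overlap, within-animal alternatives and pooled ratios without 1 library were added after seeing the data. The passage in each deposited table's name was higher by 1 than in the sample title, and titles were used. Genes passing edgeR's filterByExpr (14172) were scaled by TMM and tested with edgeR 4.0.16 in R 4.3.3 (quasi-likelihood, two-sided, animal in the model, Benjamini-Hochberg over all genes, threshold 0.05), with a prior count of 2 for log2 CPM. The SE is the log2 fold change divided by the square root of F. Alternatives were DESeq2 1.42.0, other filters and scaling, GC content and length offsets (a spline with 5 degrees of freedom, available for 96.7% of genes) and left-out libraries. Scripts were tested on simulated data. Pairing comes from the animal in the titles: deviations of libraries of the same animal at the other stage correlated with a median of 0.11, against -0.14 for the other animal. No libraries were duplicates.

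The members, lists and tests were chosen with earlier results of these data known. Named were all members, the pathway and regulator genes past the threshold and up to 4 others per list by mean CPM, and the 3 genes most correlated with a member. Results of some listed genes are not reported here.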

Additional observations from a re-analysis of the deposited data

Results flagged for a closer look

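Among 16 sets of 5 early or 6 late values of a member, 2 had a library set apart from the rest by more than a 95% limit on the gap, and chance gives about 1 in 20. Ciita was highest among the early libraries in mouse_283 at passage 2, with 0.183 CPM from 3 reads, beside 1 read in each of the others. For counts this small the rate of 1 in 20 does not hold. Cd74 was highest in mouse_283 at passage 3, with 1.19 CPM from 22 reads, in the library with the steepest trend of expression with GC content. In the strand columns, which the main comparisons do not use, H2-Aa had 49 reads over the early libraries where the unstranded column gave none.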

How the results depend on the processing

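No member called late against early changed direction in any of the 21 other settings. The number of members called late against early was 4, 1 to 5 when single libraries were left out, and 5 with strand columns summed, with or without the filter, the fifth being H2-Aa. Its reads are also held by H2-Ab1, and with the filter it passed through early libraries only, so it does not count as a separate call. Without the replicate block, that is without the animal in the model, it was 3, since H2-Ab1 went from -2.97 to -2.43 and was not called. H2-DMb1, never called, changed sign without passages 3 and 4 of mouse_283, to 0.0204 in unstranded and 0.0227 in summed strand counts. Between the animals, 1 member was called, H2-Ab1, in place of 0 under DESeq2, with no filter on low counts, without passages 3 and 4 of mouse_283, with the GC content and length correction, and with strand columns summed either with no filter or without those passages. No setting called an interaction for a member, while over all genes the count went from 0 to 2315 without mouse_283 passage 2, 65 with no filter, 16 by DESeq2, 4 without passages 3 and 4 of mouse_283 and 1 with the GC content and length correction. Over all genes 432 were called, 176 to 4864 with single libraries left out, 651 without passages 3 and 4 of mouse_283, 950 with the GC content and length correction, 1343 by DESeq2, 1819 with no filter and 1273 with no filter on summed strand columns. The causes were not tested. Depth limits Ciita, Cd74, H2-Eb1 and H2-DMb1, each on at most 22 reads a library.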
